A study of Mus musculus with 21 samples.

Results

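The 10 genes described here are markers of GABAergic interneurons: Gad1, Gad2, Slc32a1, Pvalb, Sst, Vip, Npy, Cck, Lhx6 and Reln. They were chosen by name and were all found, each with 1 Ensembl identifier, among the 55487 genes of the count table. The table held 21 libraries of poly-A RNA, each from the hippocampus of 1 male wild type C57BL/6 mouse at 10 weeks of age. The maternal separation (MS) group held 9 mice, which as pups had been taken from the dam for 4 hours a day from postnatal day 10 to 17. The standard rearing (SR) group held 12 mice, labelled as controls. By the study's methods, whole nests were assigned to a condition, most of the nesting material was removed from the MS home cages, and mice were housed after weaning in groups of 3 littermates of the same sex. MS therefore stands for separation and sparse nesting together, and littermates share a nest that the labels do not name. The labels give animal numbers, which form 7 sets of 3 consecutive numbers with 1 condition each. Mice are named here by set and place in it, with sets A to C in MS and D to G in SR. The question put to these genes was whether their mRNA levels in adulthood differed between separated and control mice.

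GABAergic interneurons are the inhibitory neurons of the hippocampus, which make GABA from glutamate with the decarboxylases encoded by Gad1 and Gad2 and load it into synaptic vesicles with the transporter encoded by Slc32a1. They fall into classes that are told apart by a calcium-binding protein (Pvalb) or by neuropeptides (Sst, Vip, Npy, Cck), and that contact different parts of the pyramidal cells. Lhx6 encodes a transcription factor of interneurons born in the medial ganglionic eminence, among them the parvalbumin and somatostatin classes, and Reln encodes reelin, a secreted glycoprotein made in the adult by several interneuron classes and early in life by Cajal-Retzius cells. Cck mRNA is also present in pyramidal cells, so its level in whole tissue is not that of interneurons alone.

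The 10 genes shared little by position. Gad1, Gad2, Slc32a1 and Lhx6 lie on chromosome 2, and the other members lie on 6 other chromosomes. RefSeq promoter windows (GRCm38.p6, 250 bases before to 50 after a start) were present for 10 of 10 members. The letters TGACG, the core of the cAMP response element, were searched on either strand. They were found in 4 of the 13 windows of members, those of Sst, Vip, Cck and Gad2, and in 20.8% of all 32851 windows. The full element TGACGTCA was found in Sst alone among the members and in 1.79% of all windows, and each full match also counts as a match to the core. The last 120 bases before the RefSeq start of these 4 genes are shown because they hold the letters. Over mice, the levels of Sst and Cck were positively and those of Gad2 and Cck negatively correlated, as described further on. Whether the letters bear on these correlations was not tested. GENCODE M21 places the starts of Gad2 and Sst further upstream than RefSeq. Each stretch is printed in the direction of transcription, and capitals mark TGACG or its reverse complement. A match is a description of letters and not evidence of a bound site.
Sst, chr16:23890845-23890964, minus strand: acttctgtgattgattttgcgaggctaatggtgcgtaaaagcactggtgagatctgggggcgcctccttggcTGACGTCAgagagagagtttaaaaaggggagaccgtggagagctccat
Vip, chr10:5639098-5639217, plus strand: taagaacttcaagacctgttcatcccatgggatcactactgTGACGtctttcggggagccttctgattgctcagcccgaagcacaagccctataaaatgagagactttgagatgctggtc
Cck, chr9:121495695-121495814, minus strand: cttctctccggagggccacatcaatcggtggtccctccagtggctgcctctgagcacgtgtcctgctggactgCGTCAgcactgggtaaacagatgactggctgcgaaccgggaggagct
Gad2, chr2:22622207-22622326, plus strand: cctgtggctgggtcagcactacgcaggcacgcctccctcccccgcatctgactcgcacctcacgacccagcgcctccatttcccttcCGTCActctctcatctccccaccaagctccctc

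Libraries held between 17276810 and 30449055 counts. The MS library A2 stood apart from the rest in a principal component analysis, with a score of 27.1 on the first component where the other libraries lay between -12.2 and 11.9. Its summed level of 10 striatal marker genes was 2543 CPM (counts relative to the scaled total of the library) against 177 to 941 in the other mice, and its summed level of 6 dentate granule cell markers was 27.8 CPM against 222 to 523. It was left out of the comparison, which leaves 8 MS and 12 SR mice. Among these, the striatal sum was 941 CPM in MS mouse B1 and 606 in SR mouse E2, and 177 to 270 in the other 18. The mice fall into 2 ranges of animal numbers, a split by label of which the meaning is not stated, with 5 MS and 9 SR mice in the first range and 3 of each in the second.

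All 10 members were detected in each of the 20 mice, with 141 to 7415 counts per library. To compare members with each other, levels were divided by the length of the exons. Per kilobase in SR mice, Sst mRNA had the highest level, 184 ± 16.6 CPM (SD, n = 12), and Cck the next, 138 ± 9.53. Gad1 (38.1 ± 2.40) and Npy (37.0 ± 6.16) followed, and Gad1 was the higher of this pair in only 12 of 20 mice, so that their order is not resolved. Below them were Gad2 (24.1), Slc32a1 (21.5) and Pvalb (17.8), neighbours whose values overlapped between SR mice. The lowest were Lhx6 (4.25), Vip (3.40) and Reln (3.39), of which Vip and Reln could not be ordered, since Vip was the higher in 8 of 20 mice. Levels in the rest of the text are CPM not divided by length and are compared between mice only.

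None of the 10 members passed the test between MS and SR mice. In edgeR's quasi-likelihood test, 0 of 10 had an adjusted p under 0.05 over the 18146 genes tested, against 0.0110% of all genes (2 genes). At an unadjusted p under 0.05 there was 1 member, Lhx6, against 11.5% of all genes. DESeq2's Wald test called 0 members, against 0.775% of all genes with an adjusted p (119 genes), and placed 1 member under an unadjusted p of 0.05, against 6.29% of all genes. The estimate was higher in MS for 7 members and lower for 3, with a median log2 fold change of 0.04 beside 0.00 for all genes tested. The groups overlapped for all 10 members. The 95% interval of the fold change lay inside a 1.3-fold change in either direction for 8 members. It reached 1.417-fold higher for Pvalb and 1.31-fold higher for Vip, so that a change of that size is not excluded for these 2 genes. The intervals of all 10 members take the mice as independent and leave out A2. With all 21 libraries the log2 fold change of Slc32a1 was larger, 0.26. In tissue RNA of this kind, fewer cells of a type and less RNA per cell cannot be told apart.

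**Figure D1:**
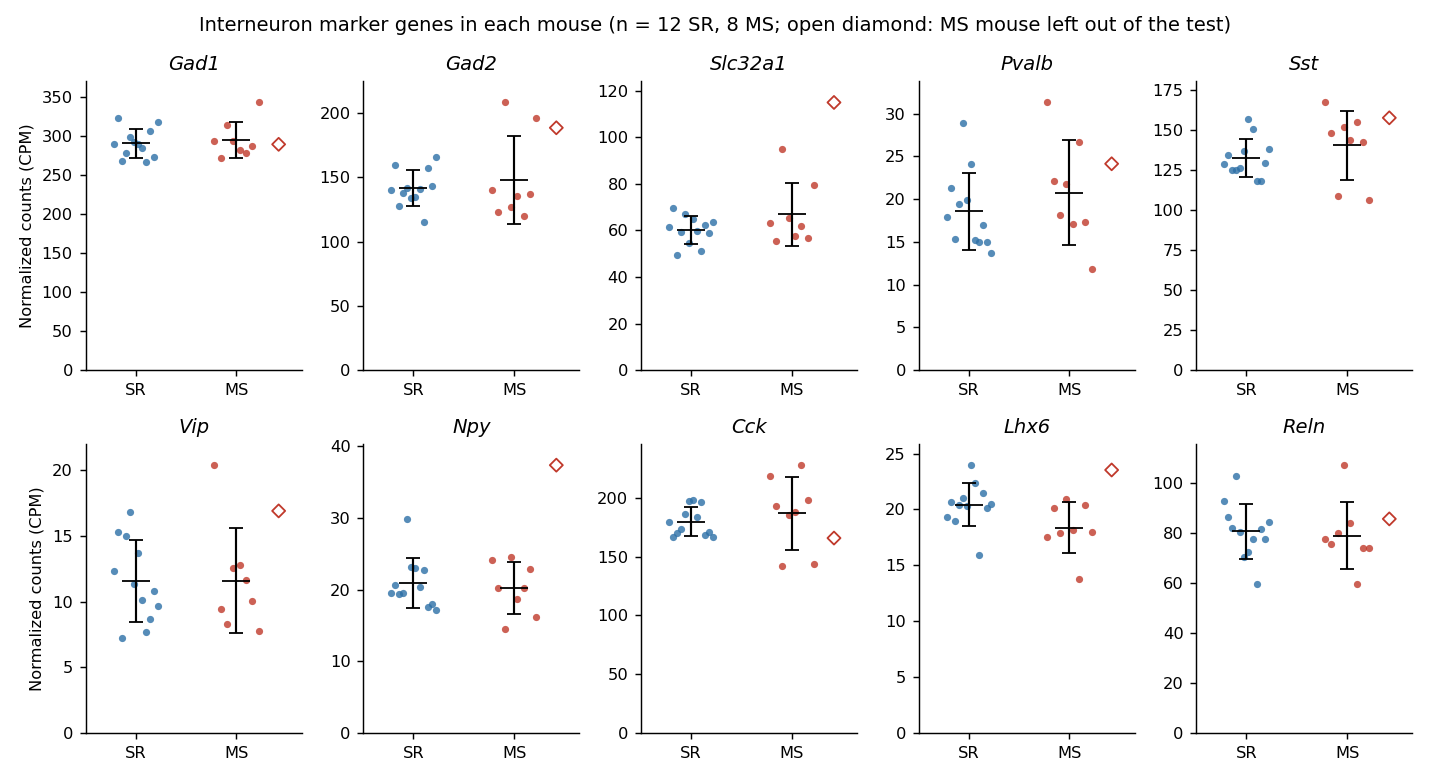
Normalized counts (CPM, linear axis from 0) of each marker gene in each mouse, with SR in blue (n = 12) and MS in red (n = 8). Black bars are the mean and SD, and the open diamond is MS mouse A2, which was left out of the test. In every panel the groups overlap, and in Gad2 MS mice B1 (208 CPM) and C3 (196 CPM) lie above all SR mice.

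The genes of GABA synthesis and vesicular loading differed between the groups by less than the spread between mice. Gad1 had 272 CPM in the lowest MS mouse, a median of 290.3 and 344 in the highest, and 267, 290.2 and 324 in the SR mice. Its log2 fold change was 0.02 (SE 0.0445, 95% interval -0.07 to 0.11, edgeR adjusted p = 0.890). Gad1 was the most evenly expressed member, with a coefficient of variation of 6.30% in SR mice.

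Gad2 ranged from 120.01 through a median of 136 to 208 CPM in MS mice and from 115 through 141 to 166 in SR mice. The mean was 148 ± 34.2 (SD, n = 8) and 142 ± 14.0 (n = 12), a log2 fold change of 0.07 (SE 0.0974, edgeR adjusted p = 0.842). The MS median was below the SR median and the MS mean above it, with mice B1 and C3 above every SR mouse. Without those 2 mice the other 6 MS mice lay between 120.01 and 140.04 CPM with a mean of 130.3 ± 8.22.

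Slc32a1 ranged from 55.3 through 62.6 to 94.9 CPM in MS mice and from 49.5 through 60.4 to 69.8 in SR mice. Its log2 fold change of 0.15 (SE 0.0890, 95% interval -0.04 to 0.33) did not pass (edgeR adjusted p = 0.541). Mouse B1, with the highest striatal sum, held the highest value, and C3 was next with 79.6 CPM. The striatal sum of C3 was 194 CPM, and E2, with a striatal sum of 606 CPM, held 67.1 CPM of Slc32a1. Striatal projection neurons are GABAergic and carry transcripts of these GABA genes too. Their part in the Slc32a1 values was not tested. The log2 fold change was 0.06 without B1, 0.08 without B1 and E2 (an analysis chosen after the data had been seen), and 0.26 with all 21 libraries, where A2 held 115 CPM (unadjusted p = 0.0318, edgeR adjusted p = 0.381, beside 11.7% of all genes under an unadjusted p of 0.05). The relation of Slc32a1 to the striatal markers over mice is given further on. The exons of Slc32a1 share 697 bases with an antisense gene, Gm14205, and the strand setting of the counting is not stated, so reads of the pair cannot be told apart.

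Of the markers of interneuron classes, Pvalb, which encodes the calcium-binding protein of fast-spiking basket and axo-axonic cells, had 11.8, 19.9 and 31.3 CPM (lowest, median and highest) in MS mice and 13.7, 17.5 and 28.9 in SR mice. The lowest and the highest value of all 20 mice were both in MS, in C3 and A1. The log2 fold change was 0.16 (SE 0.163, edgeR adjusted p = 0.748). Without A1 it was 0.05, and without the mice of set A 0.02.

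Sst encodes the neuropeptide somatostatin of the interneurons that contact pyramidal cell dendrites. It had 106, 146 and 168 CPM in MS mice and 118, 129 and 157 in SR mice, a log2 fold change of 0.09 (SE 0.0746, edgeR adjusted p = 0.701) that was 0.04 without A1. The 2 lowest MS mice, C3 and B1 (109 CPM), lay below all SR mice, and without them the other 6 ranged from 143 to 168 CPM. Vip, the peptide of interneurons that mainly contact other interneurons, had 7.73, 10.8 and 20.4 CPM in MS mice and 7.25, 11.1 and 16.8 in SR mice. Its log2 fold change was 0.01, with the widest error of the members (SE 0.182, 95% interval -0.37 to 0.39, edgeR adjusted p = 0.994).

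Npy, which encodes neuropeptide Y and is expressed in neurogliaform and in part of the somatostatin cells, had 14.5, 20.3 and 24.6 CPM in MS mice and 17.1, 19.95 and 29.9 in SR mice. The log2 fold change was -0.05 (SE 0.104, edgeR adjusted p = 0.900). The highest SR mouse was E2, which also had the second highest striatal sum. Cck, the cholecystokinin gene, had 142, 190.3 and 228 CPM in MS mice and 166, 176 and 198 in SR mice, a log2 fold change of 0.06 (SE 0.0729, edgeR adjusted p = 0.814). MS mice lay on both sides of the SR range: B1 and C3 (143 CPM) were below every SR mouse, and A1 (218 CPM) and C1 were above every SR mouse. The log2 fold change was 0.01 without C1 and 0.10 without B1.

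Lhx6 came closest to a difference. It had 13.8, 18.1 and 20.97 CPM in MS mice and 15.9, 20.5 and 24.0 in SR mice, with means of 18.4 ± 2.27 (SD, n = 8) and 20.4 ± 1.94 (n = 12). The log2 fold change was -0.15 (SE 0.0701, 95% interval -0.30 to -0.01), a level 10.1% lower in MS. The unadjusted p was 0.0378 and did not survive adjustment over all genes (edgeR adjusted p = 0.400), and Lhx6 ranked 1715 of 18146 genes by p. The two-sided exact permutation test over all 125970 splits of the 20 mice gave p = 0.0439, the only one of 10 such tests under 0.05. Adjusted over the 10 tests, this permutation p was 0.439. The lowest value was in C1 and the highest in SR mouse F1. The means of the 3 MS sets, 17.4 to 19.0 CPM, all lay below those of the 4 SR sets, 19.7 to 20.8 CPM. Set A counts only 2 mice here, since A2 was left out, and A2 held more than any of these set means. With A2 counted, the mean of set A would lie inside the range of the SR set means. The share of all genes whose set means part in this way was not computed. The estimate kept its sign in 40 of 40 alternative analyses, and its unadjusted p was under 0.05 in 25 of them. These alternatives reuse the same mice, so their number adds no independent evidence. Without C1 it was -0.10 (unadjusted p = 0.106 in edgeR's test across all genes), and with all 21 libraries it was -0.11, where A2 held 23.5 CPM and the exact permutation test gave p = 0.155. The gene shares 104 exon bases with a small RNA gene of the same strand, Gm27953.

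Reln had nearly the same range in both groups, with 59.5, 76.5 and 107 CPM in MS mice and 59.5, 80.7 and 103 in SR mice, and a log2 fold change of -0.03 (SE 0.0921, edgeR adjusted p = 0.934). Cajal-Retzius markers, of which 4 were listed and Trp73 was the most abundant, summed to 7.37 to 14.4 CPM in MS mice and 4.86 to 12.8 in SR mice. All 3 that were tested had a higher estimate in MS and none passed. Their part in the Reln values was not tested. The exons of Reln share 246 bases with the antisense gene Gm10475.

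**Figure D2:**
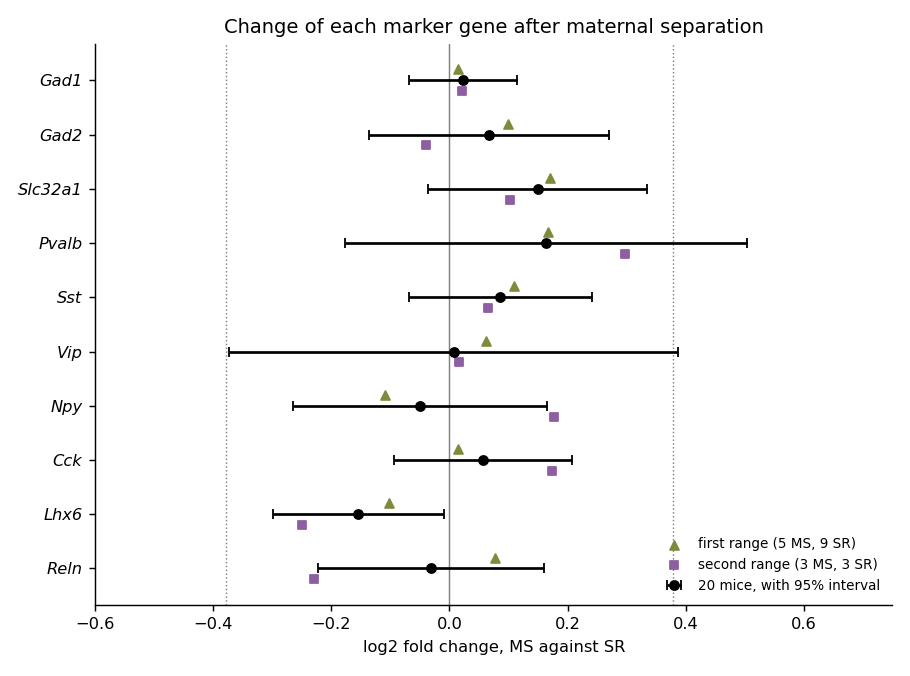
Log2 fold change of each marker gene, MS against SR, with its 95% interval over 20 mice (black) and the estimate in each range of animal numbers (triangles and squares). Dotted lines mark a 1.3-fold change. The interval leaves 0 only for Lhx6 (-0.30 to -0.01), and Gad2, Npy and Reln lie on different sides of 0 in the ranges.

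The estimates had the same sign in both ranges of animal numbers for 7 of 10 members. Lhx6 had a log2 fold change of -0.10 (SE 0.0785) in the first range and -0.25 (SE 0.132) in the second. Reln was 0.08 (SE 0.116) in the first and -0.23 (SE 0.0901) in the second, and Npy -0.11 (SE 0.123) and 0.18 (SE 0.124). The difference between the ranges, tested as an interaction, was called for 0 of 10 members and for 0% of all 18146 genes in edgeR at an adjusted p under 0.05. At an unadjusted p under 0.05 there were 0 members in edgeR, against 8.67% of all genes, and 0 in DESeq2, against 4.97%. The largest interaction was that of Reln, a second-minus-first difference of -0.31 (SE 0.188, edgeR adjusted p = 0.656).

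Genes that work with the members were examined in 8 lists with 77 genes, of which 73 were tested. In the same fit 0 of them passed, 27 had a higher and 46 a lower estimate in MS, and 13.7% had an unadjusted p under 0.05, near the 11.5% of all genes. The receptors of the members' ligands had a lower estimate in 12 of 13 cases, with a median log2 fold change of -0.09. Of all 18146 genes tested, 9010 had a lower estimate. Genes of a list can vary together over mice, so the cases of this and the following lists need not be independent. Npy1r, a receptor of neuropeptide Y, had the smallest p of all 73 genes, with 21.8 to 29.2 CPM in MS mice and 26.8 to 33.5 in SR mice (log2 fold change -0.25, SE 0.0600, edgeR adjusted p = 0.131). Its ligand gene Npy had an interval that included 0. Dab1, the adaptor protein inside cells that receive reelin, had a log2 fold change of -0.10 (SE 0.0435, edgeR adjusted p = 0.390). The genes of the perineuronal net, the extracellular matrix around many parvalbumin cells, had a lower estimate in 7 of 7 cases (median -0.08), with the smallest p for its core protein gene Acan (-0.24, SE 0.0974) and the link protein gene Hapln4 (-0.08, SE 0.0354), neither called. The 3 genes of all neurons listed, Rbfox3, Snap25 and Syt1, also had lower estimates in MS, with a median of -0.11 and summed levels of 3117 to 3537 CPM in MS against 3374 to 3793 in SR. Excitatory neuron markers were lower in 3 of 3 cases (median -0.11) and dentate granule cell markers in 6 of 6 (median -0.10). Choroid plexus markers were higher in 8 of 8 cases (median 0.90), with a median sum of 3345 CPM in MS (54.4 to 4228) and 845 in SR (30.04 to 4571), and the groups overlapped. Striatal markers were higher in 10 of 10 cases (median 0.47), with a median sum of 202 CPM in MS (183 to 941) and 193 in SR (177 to 606). None of the genes of these lists passed the test. The part of these cells in the receptor and matrix values was not tested.

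The other lists had both signs. Of 14 interneuron transcription factors, 8 were higher, with the smallest p for Sp8 (log2 fold change 0.76, SE 0.262, edgeR adjusted p = 0.263) and Dlx5 (0.30, SE 0.129, edgeR adjusted p = 0.368), both highest in mouse B1. Without B1 and E2 the values were 0.54 for Sp8 and 0.23 for Dlx5. Without C1 and C3 they were 0.53 and 0.32. With the length trend of the library as a term, described further on, they were 0.89 and 0.42. The companions of Vip and Cck cells were led by Sncg (0.46, SE 0.201), again highest in B1 and 0.21 without B1 and E2, and by Adarb2 (-0.19, SE 0.0834). Sncg was 0.50 without C1 and C3 and 0.44 with the length trend as a term. The parvalbumin cell list was led by the potassium channel subunit genes Kcns3 (-0.23, SE 0.0840) and Kcnc1 (-0.07), the somatostatin cell list by Elfn1 (-0.10) and Crhbp (-0.09), and the neurogliaform list by Ndnf (-0.06) and Id2 (0.06). GABA uptake and breakdown held 4 higher and 4 lower genes, with the smallest p for the succinate semialdehyde dehydrogenase gene Aldh5a1 (-0.07, SE 0.0336) and the glutamine synthetase gene Glul (0.09, SE 0.0468).

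**Figure D3:**
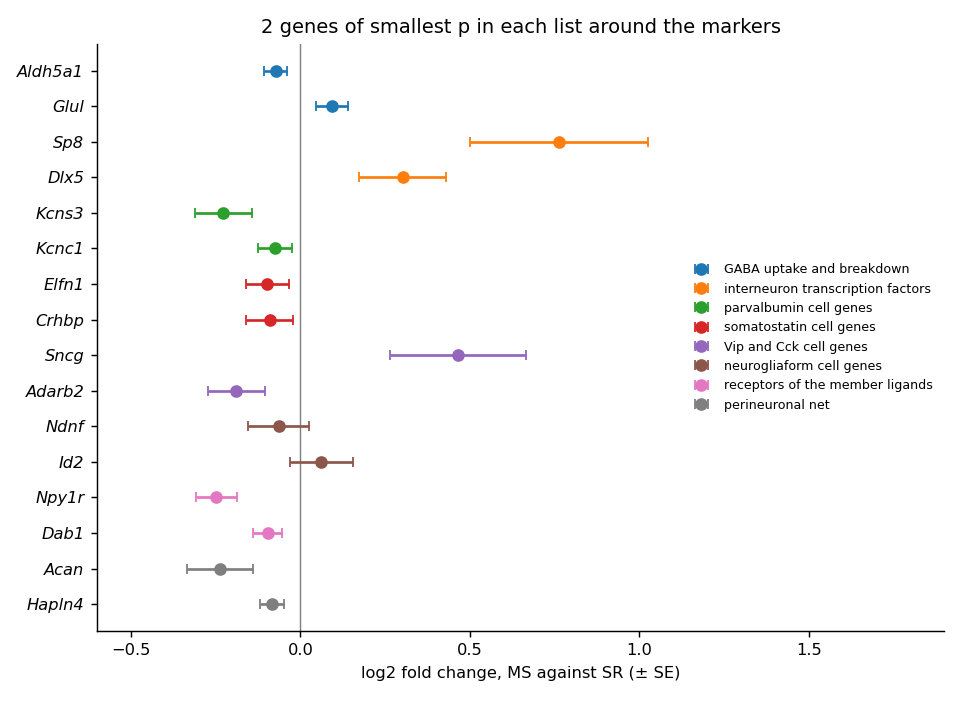
Log2 fold change (MS against SR, with SE, over 20 mice) of the 2 genes of smallest unadjusted p in each of the 8 lists around the markers. None passed at an adjusted p under 0.05, and the receptor gene Npy1r (-0.25) had the smallest p.

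The spread between mice was larger in MS than in SR for 10 of 10 members, as it was for 66.8% of all genes tested. The coefficient of variation was 23.1% in MS and 9.91% in SR for Gad2, 20.4% and 10.1% for Slc32a1, 16.6% and 6.92% for Cck, and 15.5% and 9.01% for Sst. The median ratio of the MS to the SR coefficient was 1.29 for the members and 1.17 for all genes. Without B1 and C3, 5 of 10 members had the larger coefficient in MS, and that of Gad2 was 6.31%. These mice were picked by their values and removed from MS only, so lower MS coefficients follow in part from the choice. The share of all genes without them was not computed. This comparison of spreads was made after the values had been seen and carries no test.

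Some of the members varied together over mice. For each of 45 pairs, Pearson's r was computed over 20 mice from log2 CPM centred on the group means, with two-sided permutation p-values (100000 draws within groups) adjusted over the pairs. There were 14 pairs with an adjusted p under 0.05, 10 positive and 4 negative, and 8 by Spearman's rho. The share of pairs of other genes that would be called was not computed, so these counts do not set the members apart. Gad1, Gad2 and Slc32a1 varied together: Gad1 and Gad2 had r = 0.84 (rho = 0.80, permutation adjusted p = 0.00135 and 0.00157), Gad2 and Slc32a1 0.86 (rho = 0.83, adjusted p = 0.00169 and 0.00255), and Gad1 and Slc32a1 0.79 (rho = 0.85, adjusted p = 0.00169 and 0.00157). With the 2 mice farthest from the median of the first gene left out, these r were 0.79, 0.63 and 0.76.

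Among the class markers Pvalb, Sst, Vip, Npy and Cck, 7 of 10 pairs were called by r and 4 by rho. Pvalb and Vip had r = 0.78 (rho = 0.70, permutation adjusted p = 0.00169 and 0.00922, r = 0.71 without the 2 farthest mice). Npy and Cck had r = 0.71 (rho = 0.77, adjusted p = 0.00735 and 0.00292, r = 0.71 without 2), and Pvalb and Npy 0.69 (rho = 0.67, adjusted p = 0.0105 and 0.0121, r = 0.50 without 2). Sst and Cck had r = 0.78 (rho = 0.64, adjusted p = 0.0126 and 0.0282), which was 0.39 without C3 and B1, so that much of the relation rests on these mice. Pvalb with Cck, Vip with Npy and Sst with Vip were called by r (0.63, 0.58 and 0.58) and not by rho.

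Of the 15 pairs of Gad1, Gad2 or Slc32a1 with a class marker, 4 were called by r, all negative, 3 with Cck and 1 with Npy, and 1 by rho. The other 11 were not called. Gad2 and Cck had r = -0.84 (rho = -0.72, permutation adjusted p = 0.00540 and 0.00922) and -0.50 without B1 and C3. Gad2 with Npy (-0.63), Slc32a1 with Cck (-0.65) and Gad1 with Cck (-0.61) were called by r and not by rho, and Slc32a1 with Cck had r = -0.08 without B1 and C3, so that this relation rests on those 2 mice. Vip had r = 0.02 with Gad1 and 0.07 with Slc32a1, and Pvalb -0.02 with Slc32a1. Without B1 and C3 the r of Slc32a1 was 0.70 with Vip and 0.53 with Pvalb, and 7 of the 15 pairs were negative without their 2 farthest mice, against 13 with all mice. All 14 called pairs had the sign of the pooled r in both ranges of animal numbers (14 and 6 mice), and 8 of 14 kept an r beyond 0.5 in size without the 2 farthest mice. Of the 17 pairs with Lhx6 or Reln, 0 were called by the permutation test of r. These 2 genes had r = 0.53 with each other, and -0.04 without C1 and F3.

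**Figure D4:**
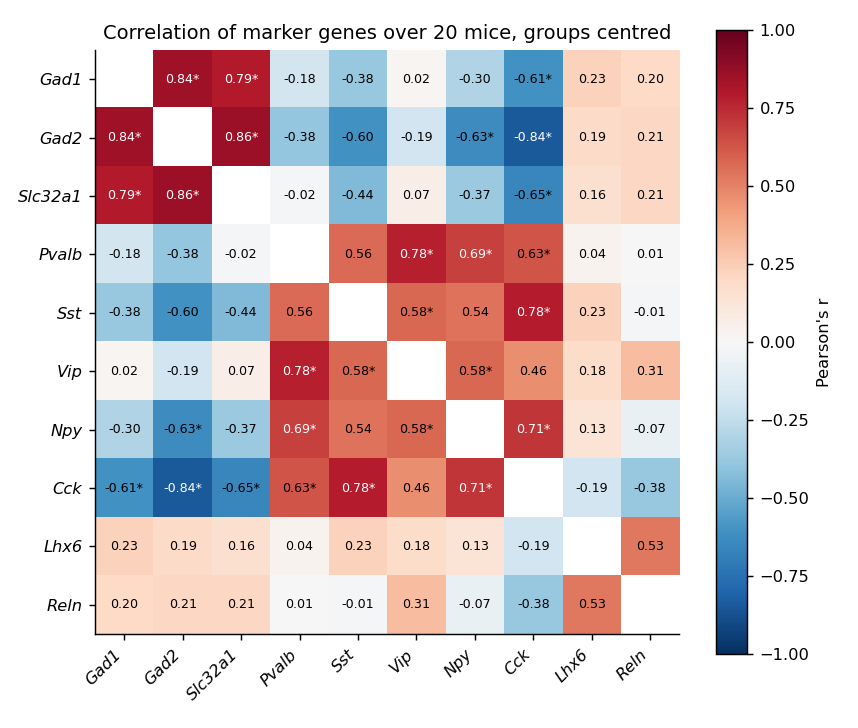
Pearson's r between the marker genes over 20 mice, from log2 CPM centred on the group means (red positive, blue negative). Asterisks mark the 14 pairs with a permutation p under 0.05 after adjustment over 45 pairs. Gad1, Gad2 and Slc32a1 form a positive block, 7 of 10 pairs among Pvalb, Sst, Vip, Npy and Cck are marked, and of the 15 pairs between these sets 4 are marked, all negative and with Cck or Npy.

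The levels of some members moved with properties of the library. Each member was set against the mean log2 CPM of 5 lists of tissue markers, 50 pairs in all. By r 5 pairs were called, all 5 also by rho, and rho called others that are given below. The share of other genes related to these lists was not computed, so the counts do not set the members apart. Vip and Pvalb were high where neocortical markers were high (r = 0.77 and 0.75, rho = 0.70 and 0.71, permutation adjusted p = 0.00450 for each r and 0.0260 for each rho). Without E2 and A1 these r were 0.65 and 0.58. In the first range they were 0.79 and 0.81 and in the second 0.33 and 0.52. The neocortical sum was 119 to 204 CPM in MS mice and 96.4 to 291 in SR mice, with the greatest share from Tshz2, and no marker of the list was at 0 in any of the 20 mice. The highest Vip and Pvalb values of each group were in the mice with its highest neocortical sum, A1 in MS and E2 in SR. Vip was low where dentate granule cell and CA pyramidal cell markers were high (r = -0.70 for each, rho = -0.66 for each, permutation adjusted p = 0.0136 and 0.0103, and 0.0260 for each rho). Without E2 and A1 both were -0.51, and in the second range, which holds 6 mice, they were positive, 0.29 and 0.50, so the relation did not hold within both ranges. Slc32a1 was high where striatal markers were high (r = 0.68, rho = 0.63, adjusted p = 0.0367 and 0.0322), with r = 0.33 without B1 and E2. Called by rho and not by r were Vip and Reln with striatal markers (rho = 0.59 and 0.64, permutation adjusted p = 0.0444 and 0.0260). Without B1 and E2 their r were 0.74 and 0.62, against 0.24 and 0.26 with all mice. In the second range these r were -0.02 and -0.31. Reln with CA pyramidal cell markers was also called by rho alone (rho = -0.66, permutation adjusted p = 0.0260, r = -0.51, and -0.81 without E2 and A1). With all 21 libraries, Vip with dentate granule cell markers was no longer called by r (permutation adjusted p = 0.0671). Slc32a1 was then called by r with dentate granule cell and CA pyramidal cell markers (r = -0.76 and -0.73). Without A2 and E2 these r were -0.52 and -0.42. Whether neighbouring tissue in the dissections sets these values was not tested.

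A relation with transcript length was looked for after the values had been seen. The length trend of a library is Pearson's r, across 15935 genes of that library, between log2 CPM centred over mice and the log2 of the exon length. It lay between -0.28 (C1) and 0.17 (C3) in MS mice and between -0.10 (F3) and 0.10 (D1) in SR mice. Over 20 mice, Gad2 had r = 0.78 with the trend (rho = 0.83, permutation adjusted p = 0.00335 and 0.000400 over 10 relations), Gad1 0.68 (rho = 0.68, adjusted p = 0.00720 and 0.00713) and Cck -0.78 (rho = -0.79, adjusted p = 0.00335 and 0.000900). These 3 members were called by r, and by rho 7 were: the others were Slc32a1 (rho = 0.66, permutation adjusted p = 0.00777), Sst (-0.55), Npy (-0.57) and Reln (0.56, permutation adjusted p = 0.0233 for each of the last 3). Without C1 and C3 the r of Gad2, Gad1 and Cck were 0.72, 0.58 and -0.60, and all had the same sign in both ranges (0.70, 0.57 and -0.59 in the first, 0.92, 0.77 and -0.95 in the second). The exons of Gad1 and Gad2 span 7639 and 5876 bases and those of Cck 1305. By the definition of the trend, long genes tend to rise with it and short genes to fall. The share of all genes related to the trend was not computed, so the counts do not set the members apart. With the trend as a term in the edgeR fit, the log2 fold change was 0.18 for Gad2 (unadjusted p = 0.0104) and 0.23 for Slc32a1 (unadjusted p = 0.0103, edgeR adjusted p = 0.322 for both). It was -0.05 for Cck, -0.11 for Lhx6 (unadjusted p = 0.146), 0.01 for Sst and 0.02 for Pvalb. None of the 10 was called in this fit, and 2 had an unadjusted p under 0.05, beside 10.7% of all genes.

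**Figure D5:**
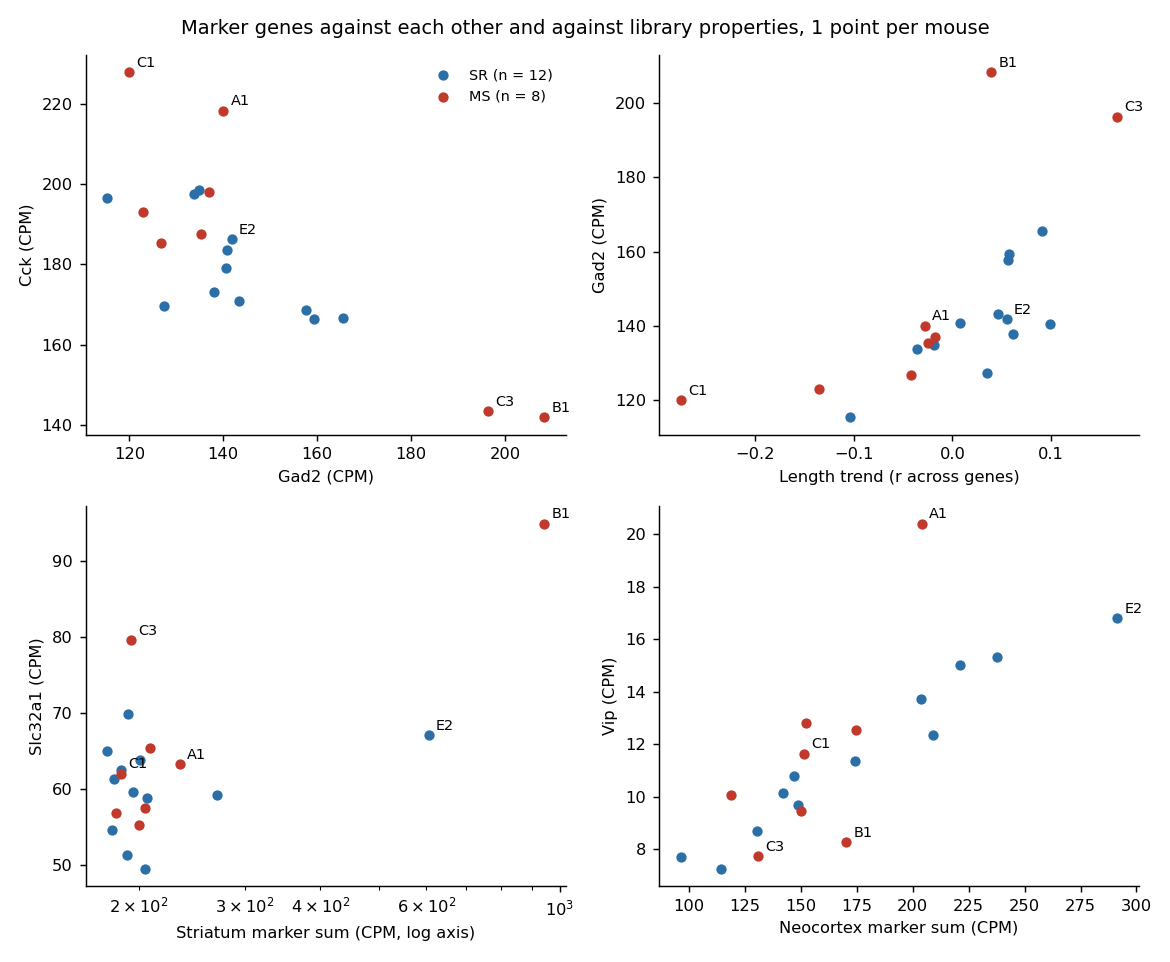
Each point is 1 mouse (SR blue, n = 12; MS red, n = 8). The panels show Cck against Gad2, Gad2 against the length trend of the library, Slc32a1 against the striatum marker sum (log axis) and Vip against the neocortex marker sum. B1 and C3 lie at the high Gad2 and low Cck end, B1 has the highest striatal sum (941 CPM), and E2 the highest neocortical sum (291 CPM).

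The genes whose levels over the 20 mice were most like those of each member were sought among 15940 genes, by r of centred log2 CPM and without a test. Those of Gad1 were Usp29 (0.89) and the interneuron transcription factor gene Dlx1 (0.87). Those of Gad2 were Usp29 (0.93) and the calcium channel subunit gene Cacna2d2 (0.93), and Cacna2d2 (0.87) was also near Slc32a1, after Fndc9 (0.91). Vip was nearest to Kcnj9 (0.94) and Rnf227 (0.93), Pvalb to Ccni (0.92) and Pcsk1n (0.92), Sst to Serp2 (0.91) and Znhit3 (0.79), and Cck to Nrgn (0.91), the postsynaptic neurogranin gene of principal neurons, and Chchd1 (0.88). Npy was nearest to Lmo4 (0.81) and the VIP receptor gene Vipr1 (0.81), Lhx6 to Efr3b (0.85) and Zfr2 (0.84), and Reln to Prr36 (0.88) and Oxr1 (0.87).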

How the data were processed

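Poly-A RNA of mouse hippocampus was sequenced by the authors with paired-end reads on an Illumina NovaSeq, 1 library per mouse. Per the submitters' processing notes, the authors aligned reads to GRCm38 with STAR 2.7.3a and counted them per Ensembl gene with featureCounts; strand setting and filters are not given in the sources used here. The authors deposited raw counts, neither normalized nor filtered, and no column of the table belonged to another series (0 columns). Totals were 17276810 to 30449055 counts per library, with counting error weighing most on genes of few counts. The most alike libraries of a group differed by 3.58 times what sampling alone would give (a chi-square statistic over its degrees of freedom), so each was kept as its own sample.

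The library farthest from the median of the first principal component (variance-stabilised counts, 500 most variable genes, DESeq2 1.42.0) was left out. Genes were kept by filterByExpr with a minimum count of 10, scaled with TMM factors, and tested in edgeR 4.0.16 (quasi-likelihood, robust, R 4.3.3), with Benjamini-Hochberg adjustment over all genes tested and a threshold of 0.05. Log2 CPM used a prior count of 2. Intervals of 95% use the test's degrees of freedom. Symbols, positions and exon lengths are from GENCODE M21, promoters from RefSeq. The fits were tested on simulated counts with known changes. The labels say that each library is 1 mouse, but mice of a set may be littermates, and p-values then measure the spread between mice and not between nests.

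Named are the 10 members, the 2 genes of smallest unadjusted p in each list, and for each member the 2 genes of highest r with a mean log2 CPM of at least 0. Members and lists were chosen with earlier results of these data known. 1 listed gene, Dlx6os1, had no single identifier and was not used. Alternatives were all 21 libraries, DESeq2, its size factors, other filters, the number range as a term or alone, the set as a random block (limma 3.58.1) or summed, and each library or set left out. The length trend as a term and leaving out B1 with E2 or C1 with C3 were chosen after seeing the data.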

Additional observations from a re-analysis of the deposited data

Results flagged for a closer look

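Among the 10 members, 1 MS mouse lay apart from its group. Vip was 20.4 CPM in A1, and the next MS mouse had 12.8 CPM, a gap of 0.600 of the whole range, above Dixon's 95% critical value for 8 mice. Such a gap turns up by chance in about 1 of 20 groups, and 10 groups were examined. A1 also had the highest neocortical marker sum of the MS mice, 204 CPM, and the lowest dentate granule cell sum of the 20 mice, 222 CPM. Without A1 the log2 fold change of Vip was -0.16.

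MS library A2, which is in no comparison, exceeded every SR mouse in 5 members. The share of all genes in which A2 did so was not computed, so this count does not set the members apart. On the scale of all 21 libraries it held 115 CPM of Slc32a1 (highest SR mouse 69.8), 37.4 CPM of Npy (29.9), 189 CPM of Gad2 (166), 16.9 CPM of Vip (16.8) and 158 CPM of Sst (157). The last 2 differ from the highest SR mouse by little. Its Gad1, 290 CPM, was inside the range of the other mice. The same library had a striatal marker sum of 2543 CPM, a dentate granule cell sum of 27.8 CPM and 0.692 CPM of Dsp, a granule cell gene, and the part of these in the member levels was not tested.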

How the results depend on the processing

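No member was called under any of the 40 alternatives (lowest adjusted p 0.230), and the sign of the estimate was that of the reported one in 368 of 400 member estimates. With the second range alone, the log2 fold change of Gad2 was -0.0395 and that of Npy 0.177. With the first range alone, that of Reln was 0.0765. With all 21 libraries, that of Npy was 0.0836. Of the analyses chosen after seeing the data, the length trend as a term gave -0.0537 for Cck, 0.0645 for Reln and -0.0019 for Vip. Leaving out B1 and E2 gave -0.0183 for Gad2 and 0.0637 for Npy, and leaving out C1 and C3 gave 0.0459 for Reln. When each library or set was left out, the ranges were -0.0128 to 0.0417 for Gad1, -0.0201 to 0.119 for Gad2, -0.129 to 0.0264 for Npy, -0.163 to 0.0737 for Reln and -0.163 to 0.136 for Vip, and, with the sign kept, 0.0597 to 0.201 for Slc32a1, 0.0171 to 0.277 for Pvalb, 0.0244 to 0.134 for Sst, 0.00675 to 0.124 for Cck and -0.186 to -0.103 for Lhx6. The sign turned without C3 for Gad1, B1 or C3 for Gad2, B1 or E2 for Npy, C1 or E1 for Reln, and any of several mice for Vip, whose lowest value was without A1. The cause was not tested.

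The number of genes called, 2 in the reported fit, was 1 with all 21 libraries and 1 with no filter on low counts. It was 119 in DESeq2's Wald test, 230 in the first range alone, 0 in the second range alone, 0 with counts summed within sets and 0 to 340 when a library or set was left out. It was 0 with the length trend as a term, 0 without B1 and E2, and 72 without C1 and C3. Members under 0.05 in the exact permutation test were 1 as reported and 0 with all 21 libraries. Correlated pairs were 14 in the reported analysis, 11 with all 21 libraries and 14 with DESeq2's size factors.

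No paired analysis was possible because the labels number no replicates across the conditions. The lowest libraries held 141 counts of Vip and 215 of Pvalb, and counting error weighs on these values. The 8 MS mice, 1 with a high striatal sum, limit all members.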
